A study of Mus musculus with 3 samples.

Results

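The skin fibroblast lineage markers examined here are 10 genes, *Thy1*, *Pdpn*, *Dpp4*, *Ly6a*, *Cd34*, *En1*, *Dlk1*, *Prdm1*, *Lrig1* and *Crabp1*, chosen by name from the 43472 rows of the expression table, and all 10 were found. RNA sequencing was performed on 3 libraries of wounded mouse primary fibroblasts, labelled replicates 1, 2 and 3 of 1 condition. The cells came from the digested tip of the tail of C57BL/6 mice, were grown in medium with serum, with no sorting step described, were scratched with a pipette tip, and received the soluble micrograft (MG), the cell-free fraction of minced mouse skin, together with the MEK inhibitor PD0325901 for 5 h. All 3 libraries share the wound, the MG and the inhibitor. With 1 condition at hand, no treatment is compared with another, and what follows describes levels and their spread between replicates. The age and sex of the animals, the passage of the cultures and the number of animals behind each replicate are not given in the sources used here.

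Skin fibroblasts are not 1 kind of cell. In mouse dermis an upper lineage forms the papillary dermis and the dermal papilla of the hair follicle, and a lower lineage forms the reticular dermis and the fat layer beneath it, and surface proteins are used to tell them apart. *Thy1* (CD90) and *Pdpn* (podoplanin) encode surface glycoproteins found widely on fibroblasts. *Dpp4* (CD26, a dipeptidyl peptidase), *Lrig1* (a brake on EGF receptor signalling) and *Prdm1* (the repressor Blimp1) are used as marks of the upper lineage, and *Crabp1*, a cytosolic retinoic acid-binding protein, is used for upper dermal and dermal papilla cells. *Dlk1*, a Notch-like protein that holds back fat cell formation, *Ly6a* (Sca-1) and *Cd34*, a sialomucin, are used for the lower dermis and adipocyte precursors. *En1* encodes the homeobox factor Engrailed-1, whose past expression marks a scar-forming fibroblast lineage of the back skin. These proteins are not exclusive to fibroblasts, since T cells carry Thy1, lymphatic endothelium carries podoplanin and blood endothelium carries Cd34 and Sca-1.

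RefSeq start sites of GRCm38.p6 were at hand for 8 of the 10 genes, with *Thy1* and *Ly6a* as the missing entries. The 250 bases before the start are shown for 3 genes whose levels behaved differently between the replicates, as described below. *Dlk1* and *Crabp1* were highest in replicate 2, and *Pdpn* was nearly level. Capitals mark CpG pairs, and each sequence is written on the strand of the gene.
Dlk1, chr12:109452573-109452822, plus strand: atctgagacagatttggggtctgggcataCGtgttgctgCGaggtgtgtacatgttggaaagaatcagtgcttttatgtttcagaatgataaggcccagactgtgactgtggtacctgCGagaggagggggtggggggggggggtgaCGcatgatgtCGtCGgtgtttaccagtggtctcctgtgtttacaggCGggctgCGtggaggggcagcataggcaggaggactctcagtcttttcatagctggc
Crabp1, chr9:54764498-54764747, plus strand: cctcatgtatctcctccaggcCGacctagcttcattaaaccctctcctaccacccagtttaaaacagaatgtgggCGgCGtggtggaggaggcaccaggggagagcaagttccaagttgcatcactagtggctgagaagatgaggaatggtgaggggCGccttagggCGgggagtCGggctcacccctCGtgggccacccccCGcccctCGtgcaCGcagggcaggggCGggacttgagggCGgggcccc
Pdpn, chr4:143299565-143299814, minus strand: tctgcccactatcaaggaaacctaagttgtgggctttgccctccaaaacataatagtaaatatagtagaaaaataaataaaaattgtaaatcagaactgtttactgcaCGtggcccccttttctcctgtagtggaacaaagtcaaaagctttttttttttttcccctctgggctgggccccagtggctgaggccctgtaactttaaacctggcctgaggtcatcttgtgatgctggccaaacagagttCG
The window of *Crabp1* held 12 CpG pairs at 63.6% GC, that of *Dlk1* 8 at 54.8% and that of *Pdpn* 2 at 43.2%, against medians of 6 pairs and 52.4% over all 32851 windows of this length. Among the others, *Lrig1* held the most, with 26 CpG pairs at 71.6% GC, followed by *En1* with 19, *Prdm1* with 15, *Cd34* with 6 and *Dpp4* with 4. AP-1, a factor downstream of ERK, is the factor of interest in this study, so the windows were searched on both strands for TGANTCA. This is a loose form of its site that allows any base in the middle, and it reads the same on either strand. A match was found in 2 of the 8 genes, *En1* (TGACTCA) and *Prdm1* (TGAATCA), and in 6.75% of all windows. The stretches holding it are shown with the match in capitals.
En1, chr1:120602309-120602345, plus strand: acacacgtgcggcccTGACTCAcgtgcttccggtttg
Prdm1, chr10:44458775-44458811, minus strand: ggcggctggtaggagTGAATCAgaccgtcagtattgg
The match begins 163 bases before the RefSeq start of *En1* and 48 bases before that of *Prdm1*. The *Prdm1* window, 44458749 to 44458998, lies inside the annotated span of the gene, 44437177 to 44528501, so the start used is an internal one. Of the *En1* window, 69 bases lie in annotated exons. The related site TGACGTCA was in 0 of the 8 windows and in 1.55% of all. A match is a run of letters only, and binding was not measured in these libraries.

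The reads behind the values could be recovered, because all values of a library were multiples of 1 smallest step. These reads summed to between 17244505 and 27037783 per library, and no library was a copy of another, as the dispersion index of the counts, near 1 for sampling noise alone, was at least 56.0 in every pair. Levels are given as normalized counts, that is, the reads of a library divided by its size factor. Replicate 2 stood apart from the others across the transcriptome. It was more than 2-fold from both other libraries in 10.1% of the 13154 genes with a mean of at least 10 normalized counts, against 4.26% for replicate 1 and 3.58% for replicate 3. Counts of genes with a more than 2-fold range are also given without it.

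**Figure D1:**
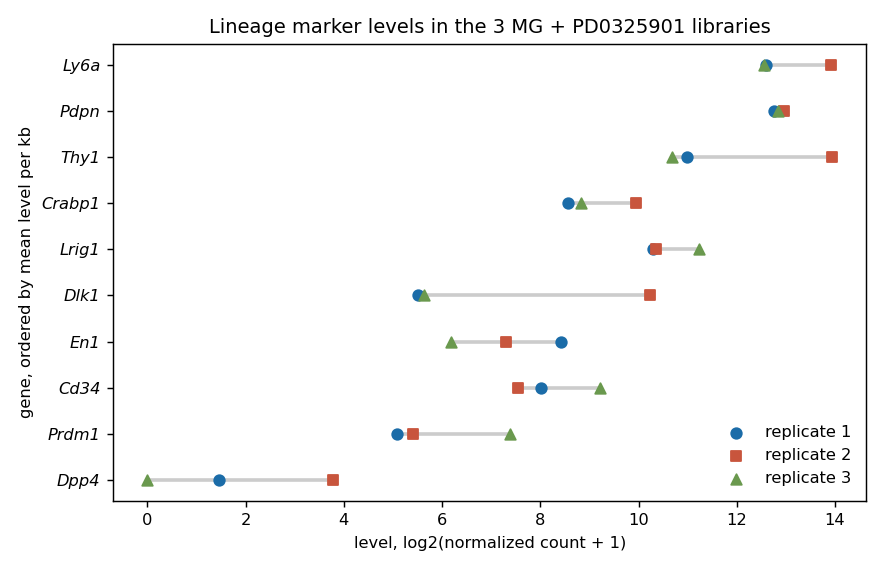
Level of each lineage marker, as log2(normalized count + 1), in replicates 1 (circles), 2 (squares) and 3 (triangles), with genes ordered by mean level per kb and a grey bar from the lowest to the highest library. Replicate 2 sits far to the right for *Thy1* and *Dlk1*, the 3 points of *Pdpn* nearly coincide, and *Dpp4* lies near 0.

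Levels of different genes were compared per kb of exonic length, since long transcripts collect more reads. On this scale *Ly6a* was the highest in all 3 libraries, with a mean of 7658 ± 4486 normalized counts per kb (SD, n = 3). *Pdpn* came second by mean, with 4067 ± 286 per kb, and its range did not overlap that of *Ly6a*. *Thy1*, with 2164 ± 2684 per kb, was not separated from *Pdpn* by the spread between replicates, as it lay above *Pdpn* in replicate 2 and below it in replicates 1 and 3. Likewise *Crabp1*, with 754 ± 412 per kb, lay below *Thy1* in replicates 1 and 2 and above it in replicate 3. *Lrig1* followed with 296 ± 116 per kb and was the fifth gene in every library. The next 4 genes by mean were *Dlk1* with 76.7 ± 119, *En1* with 72.5 ± 52.7, *Cd34* with 47.4 ± 29.6 and *Prdm1* with 14.4 ± 13.3 per kb. Neighbours among these 4 had overlapping ranges. Their order differed from library to library, though *Cd34* lay above *Prdm1* in all 3. *Dpp4* was last in every library, with 0.761 ± 1.09 per kb. Dividing by the longest annotated transcript instead moved *Cd34* from rank 8 to rank 6, *Dlk1* to rank 7 and *En1* to rank 8, made the ranges of *Crabp1* and *Lrig1* overlap, and put *Thy1* above *Crabp1* in all 3 libraries, with 952 against 563 per kb in replicate 3.

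**Figure D2:**
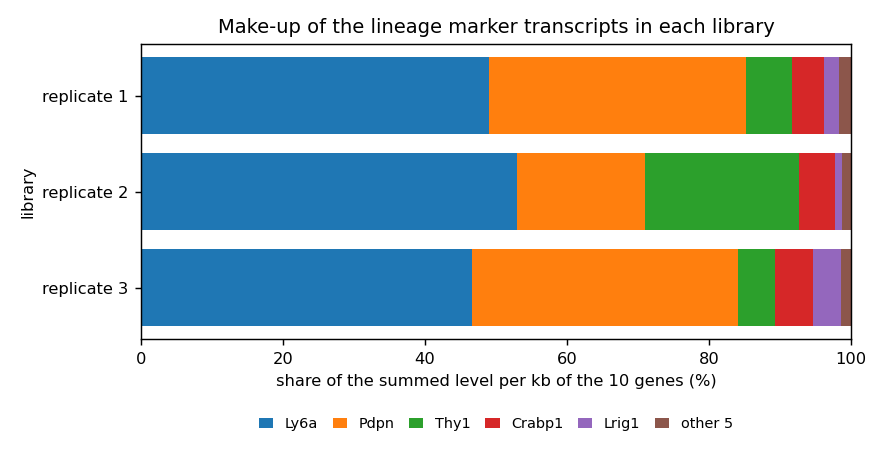
Share of each gene in the summed level per kb of the 10 lineage markers (x axis, percent) in the 3 libraries. *Ly6a* makes up 46.6% to 52.9% in each library, while *Thy1* takes 21.7% in replicate 2 and 6.44% and 5.17% in replicates 1 and 3.

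Summed over the 10 genes, the level per kb was 10532, 24245 and 10675 in replicates 1, 2 and 3, so replicate 2 held more than the other libraries. The share of *Ly6a* in this sum was nearly the same in each, 49.1%, 52.9% and 46.6%. That of *Pdpn* was 36.2%, 18.0% and 37.6%, lowest in replicate 2, where *Thy1* took its place as the second gene. *Crabp1* held 4.47%, 5.06% and 5.27%.

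The widely used surface markers *Thy1* and *Pdpn* differed in their spread between replicates. *Thy1*, on chromosome 9 from 44043384 to 44048579 (GRCm38), reached 2031 normalized counts in replicate 1, 15760.0 in replicate 2 and 1652 in replicate 3, on average 6481 ± 8038 (SD, n = 3). Replicate 2 was 7.76-fold above replicate 1 (95% interval 7.44 to 8.10) and 9.54-fold above replicate 3 (9.04 to 10.1). These intervals are exact binomial ones on reads and cover counting error only, not the variation between cultures. Replicates 1 and 3 differed from each other by 1.23-fold. In these bulk samples, more *Thy1*-expressing cells and more *Thy1* RNA per cell cannot be told apart. *Pdpn*, on chromosome 4 from 143267431 to 143299564, gave nearly equal values of 6928, 7952 and 7291 normalized counts, on average 7390 ± 519 (SD, n = 3), and its highest library was only 1.15-fold above its lowest. The SD of log2(normalized count + 1) was 0.10 for *Pdpn* and 1.80 for *Thy1*, with a median of 0.32 over the 13154 genes. The ratio of the 2 genes within a library does not depend on the size factor. *Thy1* over *Pdpn*, per kb, was 0.178, 1.20 and 0.137 in replicates 1, 2 and 3. Against *Vim*, the intermediate filament gene of mesenchymal cells, *Pdpn* varied by 1.21-fold between libraries and *Thy1* by 10.5-fold.

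Of the markers of the lower dermis, *Dlk1* and *Ly6a* were highest in replicate 2 and *Cd34* was lowest there. *Dlk1* (chromosome 12, 109452823 to 109463336) had 44.3, 1208 and 48.6 normalized counts, which rested on 51, 1715 and 41 reads. Replicate 2 was 27.3-fold above replicate 1 (95% counting interval 20.7 to 36.8) and 24.9-fold above replicate 3 (18.3 to 34.8), whereas replicates 1 and 3 differed by 1.10-fold, with an interval of 0.709 to 1.69 that includes no difference. This was the largest range of the 9 genes with a mean of at least 10, and rank 81 of 13154 genes. *Ly6a* (chromosome 15, 74994877 to 74998031) had 6226, 15468 and 5990 normalized counts, and replicate 2 was 2.48-fold above replicate 1 and 2.58-fold above replicate 3. *Ly6a* belongs to a family of closely related genes in 1 cluster, and reads that match a relative equally well make its level uncertain. Its relative *Ly6c1*, used as a mark of fascia, had 629, 1447 and 450 normalized counts, and the ratio of *Ly6a* to *Ly6c1*, per kb, stayed between 13.8 and 18.5. *Cd34* (chromosome 1, 194938819 to 194961279) had 259, 187 and 591 normalized counts, so that replicate 3 was 2.29-fold above replicate 1 and 3.17-fold above replicate 2. *Ly6a* over *Cd34*, per kb, was thus 146, 501 and 61.3. In the annotation, 148 exonic bases of *Cd34* overlap Gm16897 on the opposite strand, and whether the counting used strand is not given in the sources used here.

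The upper-lineage markers followed no common pattern. *Lrig1* (chromosome 6, 94604529 to 94700158) was the steadiest of them, with 1249.5, 1311 and 2400.2 normalized counts and a 1.92-fold range, highest in replicate 3. *Prdm1* (chromosome 10, 44437177 to 44528501) had 33.0, 41.6 and 166 normalized counts from 38, 59 and 140 reads. Replicate 3 was 5.03-fold above replicate 1 (95% counting interval 3.49 to 7.40) and 3.99-fold above replicate 2 (2.92 to 5.51), and the difference between replicates 1 and 2, 1.26-fold, lay within counting error (0.824 to 1.95). *Crabp1* (chromosome 9, 54764748 to 54773110) had 378, 984 and 452 normalized counts, highest in replicate 2 by 2.60-fold over replicate 1 and 2.18-fold over replicate 3. *Dpp4* (chromosome 2, 62330073 to 62412231) was at the limit of detection, with 2, 18 and 0 reads, or 1.74, 12.7 and 0 normalized counts. A count of 0 allows up to 3 reads, which is 3.56 normalized counts in replicate 3. The 12.7 of replicate 2 was 3.57-fold above that limit, with no allowance for the counting error of its own 18 reads. Replicate 2 was 7.30-fold higher than replicate 1, with a counting interval of 1.75 to 64.9. *Lrig1* shares 144 exonic bases with Slc25a26 and *Dpp4* 232 with Gm13561, both on the opposite strand.

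*En1* (chromosome 1, 120602418 to 120607992) was the only gene of the 10 with its highest level in replicate 1. Its level was 342 normalized counts in replicate 1, 158 in replicate 2 and 71.1 in replicate 3, from 394, 224 and 60 reads, on average 190.4 ± 138 (SD, n = 3). Replicate 1 was 2.17-fold above replicate 2 (95% counting interval 1.84 to 2.57), which was 2.22-fold above replicate 3 (1.66 to 3.00). No 2 libraries were alike within counting error, which was also so for *Thy1*, *Pdpn*, *Ly6a*, *Cd34* and *Crabp1*. Replicate 2 was in the middle, as it was for *Prdm1* and *Lrig1*.

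**Figure D3:**
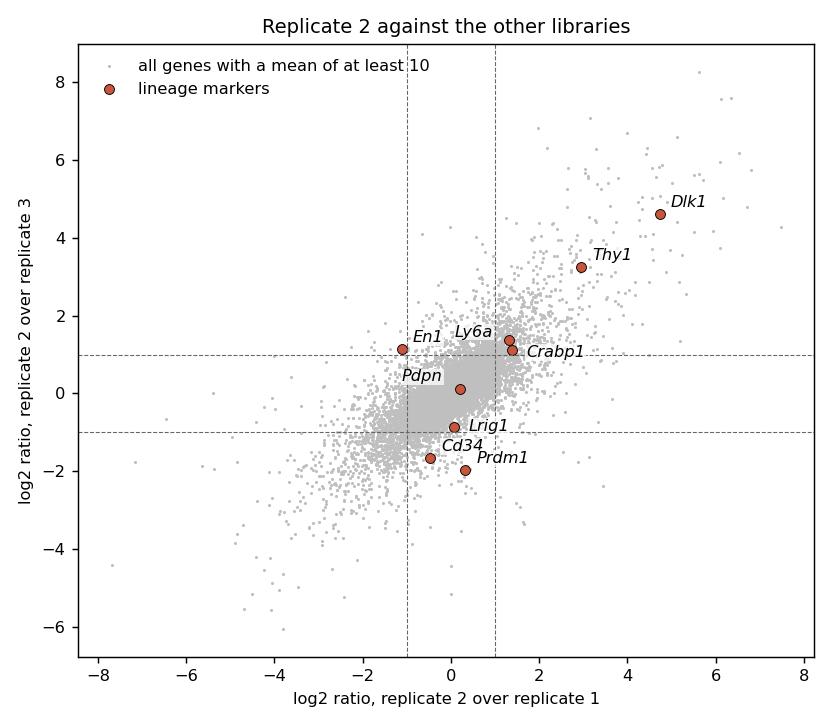
Log2 ratio of replicate 2 over replicate 1 (x axis) and over replicate 3 (y axis), with a pseudocount of 1, for all 13154 genes with a mean of at least 10 normalized counts (grey) and the 9 lineage markers among them (red), and dashed lines at a 2-fold difference. *Thy1*, *Dlk1*, *Ly6a* and *Crabp1* lie in the upper right corner, more than 2-fold above both other libraries, and *Pdpn* lies near the centre.

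Set against the whole table, 9 of the 10 genes had a mean of at least 10 normalized counts, and each of the 9 also had more than 10 in every library, with *Dpp4* as the gene left out. Of these 9, 7 spanned more than 2-fold from lowest to highest library, where 26.5% of all 13154 genes did, with *Pdpn* and *Lrig1* as the exceptions. In 4 of the 9, *Thy1*, *Dlk1*, *Ly6a* and *Crabp1*, replicate 2 was more than 2-fold above both others, against 5.2% of all genes, and in 0 of the 9 it was more than 2-fold below both others, against 4.87%. Replicate 3 was more than 2-fold above both others in 2, *Cd34* and *Prdm1* (1.28% of all genes), and below in 1, *En1* (2.3%). Replicate 1 was above both others in 1, *En1* (2.29%), and below in 0 (1.97%). Over the 9 genes, the SD of log2(normalized count + 1) had a median of 0.85, against 0.32 over all genes. The genes were chosen with earlier results of these data known, *Thy1* among them, so these counts describe the genes and test nothing. Without replicate 2, 3 of the 9 genes kept a more than 2-fold range, *Cd34*, *En1* and *Prdm1*, against 9.12% of 13095 genes. Without replicate 3, 5 of 9 did, against 19.1%, and without replicate 1, 7 of 9 did, against 16.1%.

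**Figure D4:**
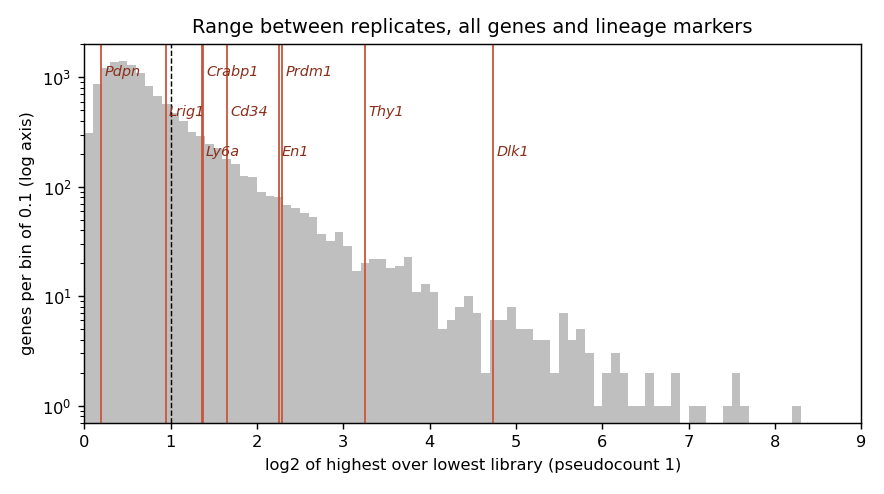
Histogram of the log2 ratio of the highest to the lowest library (x axis, pseudocount 1) over the 13154 genes, in bins of 0.1 with a log y axis, with red lines at the 9 lineage markers and a dashed line at 2-fold. *Dlk1* and *Thy1* lie far in the tail at ranks 81 and 269, and *Pdpn* lies at rank 11984, among the steadiest genes.

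Genes used as markers of fibroblasts in general were read beside the label of the cells. All 10 pan-fibroblast genes had a mean of at least 10 normalized counts, and their median log2 ratio of replicate 2 over the mean of replicates 1 and 3 was -0.07. *S100a4*, a calcium-binding protein, was the highest of them per kb. *Pdgfrb* and *Pdgfra*, the PDGF receptors of mesenchymal cells, had 2988 ± 124 and 260.0 ± 45.7 normalized counts (SD, n = 3). *Fap*, fibroblast activation protein, was low in every library, with 13.9, 16.2 and 17.8. A more than 2-fold range was seen in 2 of the 10, against 26.5% of all genes, and in 1 without replicate 2, against 9.12%. The 2 were small proteoglycans of the matrix. *Lum* had 5073, 289 and 1164 normalized counts and *Dcn* 3661, 1723 and 3659, both lowest in replicate 2, the library in which *Thy1* was highest. Of the 6 genes of the dermal sheath and myofibroblast list, 2 had a more than 2-fold range, with or without replicate 2, against 26.5% of all genes with it and 9.12% without, and the median log2 ratio in replicate 2 was -0.29. Its leading gene *Acta2*, smooth muscle actin, had 175113 ± 27555 normalized counts (SD, n = 3), and *Itga8*, an integrin chain, had the largest range, 3.26-fold, highest in replicate 3. *Myh11*, smooth muscle myosin, had 1383, 1587 and 584, more than 2-fold below both others in replicate 3.

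**Figure D5:**
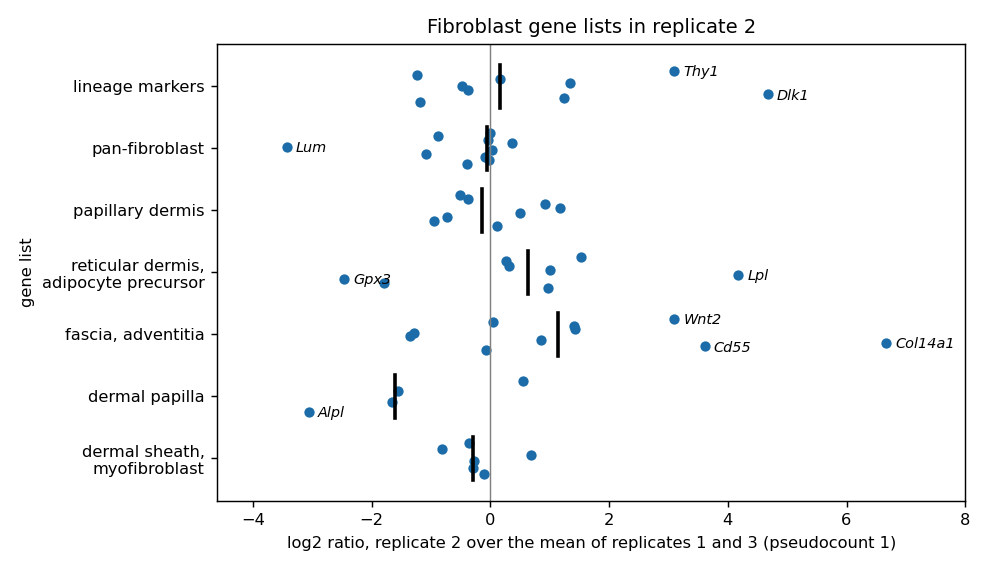
Log2 ratio of replicate 2 over the mean of replicates 1 and 3 (x axis, pseudocount 1) for each gene with a mean of at least 10 normalized counts in 7 lists (y axis), with black bars at the list medians and names for genes beyond 2. The fascia and adventitia list has a median of 1.13 with *Col14a1*, *Cd55* and *Wnt2* far to the right. The dermal papilla list has a median of -1.61 over 4 genes. Of these, only *Rspo3* was more than 2-fold below both other libraries in replicate 2.

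Companion genes of each lineage were read from lists of the same kinds of cell. In the papillary list, 8 of 10 genes had a mean of at least 10, with *Col13a1* and *Ptgds* at 0 reads in all libraries. Of the 8, 5 had a more than 2-fold range, against 26.5% of all genes, and without replicate 2 it was 1 of the 7 that then passed the minimum, against 9.12%. In 0 of the 8 did replicate 2 lie beyond 2-fold from both other libraries, where 10.1% of all genes did, and the median log2 ratio there was -0.14. *Colec12*, a scavenger receptor and the highest of this list per kb, had 1504, 4309 and 2315 normalized counts, in the order of *Crabp1*. *Col18a1*, a basement membrane collagen, had 299, 569 and 1597 and was highest in replicate 3, as *Prdm1* and *Lrig1* were. *Lef1* and *Axin2*, the nuclear partner of beta-catenin and a Wnt target, were near the minimum, with means of 12.7 ± 6.48 and 16.6 ± 9.07 (SD, n = 3). In the dermal papilla list, 4 of 8 genes passed the minimum and 3 had a more than 2-fold range, against 26.5% of all genes. Without replicate 2 it was 2 of 4, against 9.12%. In replicate 2, 1 gene, *Rspo3*, was more than 2-fold below both others (4.87% of all genes) and 0 above (5.2%). *Alpl* was above both others in replicate 1 (2.29%) and *Bmp4* in replicate 3 (1.28%). The median log2 ratio of replicate 2 was -1.61, taken against a mean of replicates 1 and 3 that a single high library raises. *Vcan*, a matrix proteoglycan, was the highest of the list at 469 ± 112 normalized counts per kb (SD, n = 3). *Alpl*, alkaline phosphatase, had 1074, 65.5 and 33.2 normalized counts, highest in replicate 1 as *En1* was, while *Bmp4* had 343, 285 and 1466 and *Rspo3* 423, 143 and 421. The other genes of this list were low, with *Sox2*, *Sox18* and *Corin* at or under 8 reads in every library and *Hhip* at 0, 18 and 1 reads.

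Of the reticular and adipocyte precursor list of the lower dermis, 8 of 10 genes passed the minimum. A more than 2-fold range was seen in 6 of the 8, against 26.5% of all genes, and without replicate 2 in 3 of 8, against 9.12%. In replicate 2, 2 were more than 2-fold above both others (5.2% of all genes) and 1 below (4.87%), and in replicate 1, 1 was above (2.29%) and 2 below (1.97%). *Lpl*, lipoprotein lipase, had 10.4, 432 and 35.6 normalized counts and *Pparg*, the master regulator of fat cells, 36.5, 83.1 and 20.1, both highest in the library with high *Dlk1*. *Gpx3*, a secreted glutathione peroxidase, went the other way with 8076, 1249 and 5763, and *Fabp4*, a fatty acid carrier, was highest in replicate 1 with 2185, 376 and 422. *Mgp*, the matrix Gla protein and the highest of the list per kb, had 3477 ± 573 (SD, n = 3). In the fascia and adventitia list all 10 genes passed and 8 had a more than 2-fold range, against 26.5% of all genes. Without replicate 2 it was 5 of the 9 that then passed, against 9.12%. In replicate 2, 4 were more than 2-fold above both others, against 5.2% of all genes, with 0 below. These were *Col14a1*, a fibril-associated collagen with 20.8, 1520 and 7.11 normalized counts, *Cd55*, a complement regulator with 177, 2149 and 173, *Wnt2*, a Wnt ligand with 3.47, 27.5 and 1.19, and *Ly6c1*. *Wnt2* passed the minimum only through replicate 2, so its place among the 4 follows from the filter. Over this list the log2 ratio of replicate 2 had a median of 1.13, with 0.0076 over all genes. In replicate 3, 4 genes of the list were more than 2-fold below both others (2.3% of all genes), and 1 was above (1.28%). The 4 were *Pi16*, *Wnt2*, *Dact2* and *Col14a1*, with only 7, 1, 5 and 6 reads in replicate 3. *Wnt2* again passed the minimum only through replicate 2. The log2 ratio of replicate 3 over the mean of replicates 1 and 2 had a median of -1.39, with -0.032 over all genes. The 4 genes with few reads enter that median. In replicate 1, 1 gene was above both others (2.29%) and 0 below (1.97%). *Anxa3*, its highest gene per kb, was level with 10134, 8909 and 8644, and *Pi16*, the name-giving gene of adventitial fibroblasts, had 19.1, 38.0 and 8.30.

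For each of the 7 genes with a more than 2-fold range, the 3 nearest genes were sought among those with a mean of at least 100 normalized counts. Nearness was the Euclidean distance between the 3 values of log2(normalized count + 1) after centring on their mean. With only 3 libraries many genes share a profile, so the number within a distance of 0.5 is given too. For *Thy1* there were 17 such genes of 9991 candidates, led by *Rnf144a* (35.6, 320 and 28.4 normalized counts, distance 0.151), *Sned1* and *Gm15675*. *Dlk1* had 4, led by *Ret* (31.3, 965 and 30.8, distance 0.223), *Pi15* and *Spon2*. *En1* also had 4, led by *Gdf15* (462, 269 and 140, distance 0.381), *Chst2* and *Arhgap20*. *Prdm1* had 7, led by *Chrdl1* (214, 287 and 1099, distance 0.0728), *Abcb1a* and *Has1*. *Cd34* had 97, of which *Aqp1* (479, 348 and 1113, distance 0.0174), *Nrcam* and *Spry4* were nearest. The profiles of *Ly6a* and *Crabp1* were common, with 563 and 672 genes within this distance, led by *Shcbp1*, *Trove2* and *Zfp57* for *Ly6a* and by *Cemip*, *Rbmx* and *Diap3* for *Crabp1*.

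Since several of these genes also mark other cells, defining markers of those cells were read in the same libraries. Of the T cell list, *Cd3e*, *Cd3g* and *Cd2* were at 0 reads in all 3 libraries, and the 5 genes together summed to 12.2, 17.6 and 8.30 normalized counts, most of it *Trac*, beside the 2031, 15760.0 and 1652 of *Thy1*. For lymphatic endothelium, which carries podoplanin, the 3 genes summed to 109, 89.5 and 92.5, mostly *Flt4*, with *Lyve1* at 10.4, 6.34 and 0. For blood endothelium the 5 genes summed to 20.8, 190.2 and 5.93, nearly all of it *Tek* in replicate 2 with 185, while *Emcn* was at 0 reads in all libraries, *Cdh5* at 0, 0 and 1 read and *Pecam1* at 9.55, 3.52 and 2.37 normalized counts. Further genes of other cell types were highest in replicate 2, as *Thy1* and *Dlk1* were. *Notch3*, a receptor of mural cells, had 40.8, 228 and 23.7 normalized counts, and *Des*, the muscle intermediate filament that mural cells also express, had 212, 1208 and 77.0. *Mcam*, of the same mural list as *Notch3*, had 886, 1496 and 544, also highest in replicate 2. The mural cell markers *Kcnj8* and *Abcc9* were at or under 6 reads in every library, and *Rgs5* had 208, 106 and 104 normalized counts. The whole list of 6 mural genes summed to 4682, 7067 and 12148 normalized counts, mostly *Cspg4*, which was highest in replicate 3. The part of endothelial or mural cells in the level of *Thy1*, *Ly6a*, *Dlk1* or *Crabp1* was not tested. The skeletal muscle list summed to 213, 1208 and 78.2, nearly all of it *Des*, with *Myod1*, *Myf5* and *Pax7* at 0 reads. The 3 adipocyte genes summed to at most 3.47 normalized counts, the 6 Schwann cell and melanocyte genes to between 49.3 and 91.2 and the 7 keratinocyte genes to between 36.7 and 87.7, most of it *Krt10*. The leukocyte list summed to 26.9, 43.7 and 98.4, highest in replicate 3, where *Laptm5* had 36.7. *Tyrobp*, *Cd52* and *Itgam* were also highest there, from 13, 8 and 7 reads. *Cd68* was not, with 22.6, 33.1 and 27.3 normalized counts, and *Ptprc* was at 2, 1 and 1 reads. Replicate 3 is the library in which *Prdm1*, a gene also active in leukocytes, was highest with 166. The part of leukocytes in that level was not tested.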

How the data were processed

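RNA-seq was read from 3 libraries of 1 condition, MG + PD0325901 for 5 h. The authors obtained 50 bp single-end reads from stranded mRNA libraries, filtered adapters with ea-utils, aligned to mm10 with TopHat 2.0.13 allowing 2 mismatches, kept uniquely mapped reads (alignment scores from 10 upwards) and counted them per gene with HT-Seq count 0.5.3p3. The annotation and strand setting are not given in the sources used here. The authors deposited this signal as normalized counts, each library's reads over a single DESeq size factor. Values were whole multiples of 1 read within 0.01 reads in 100% of rows, and reads were recovered by division, giving 22540518, 27037783 and 17244505 reads in replicates 1, 2 and 3. A further 3 columns of per-sample values matched no sample and were not used. Of 43472 rows, 27 had names turned into dates.

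No test was run, since 1 condition was analysed. Normalized counts were summarised as mean and SD, and ratios over all genes used a pseudocount of 1. Counting intervals (95%) were exact binomial. Lengths and positions came from GENCODE M21 (GRCm38, the same assembly as mm10), and promoter sequences from RefSeq (GRCm38.p6). TMM factors came from edgeR 4.0.16, and the rest from scipy 1.17.1, pandas 2.3.3 and numpy 2.4.6 under Python 3.11.15. The steps were tested on simulated data.

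The 10 genes and the lists were chosen with earlier results of these data known. Genes named were the 10, and from each companion list the highest per kb, the one with the widest range and up to 4 others, the 3 nearest profiles, and the highest and undetected markers of other cells. Beyond this rule, *Pdgfrb*, *Pdgfra* and *Fap*, *Sox2*, *Sox18*, *Corin* and *Hhip*, and single markers of other cells were named after their values were seen. Alternatives were other scalings, minimums, fold limits, pseudocounts and lengths, and each replicate left out.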

Additional observations from a re-analysis of the deposited data

How the results depend on the processing

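No paired analysis was possible because the 3 libraries belong to a single group. The number of lineage markers with a mean of at least 10 normalized counts was 9 under equal totals, TMM scaling and with each replicate left out. The number of lineage markers with a more than 2-fold range was 7, and between 3 and 7 with 1 replicate left out, lowest without replicate 2. It was 7 under both other scalings and between 5 and 8 under the other minimums, fold limits and pseudocounts. At a 3-fold limit, replicate 1 was apart from both others in 0 of the genes, replicate 2 in 2 and replicate 3 in 1, by construction fewer than at 2-fold. Distance from both other libraries is not defined with 2 libraries, so those counts were not run with a replicate left out. The counts of the companion lists without replicate 2 were added after seeing the data. The 10 mean levels moved by less than 1 SD under both other scalings. Leaving out 1 library moved several means by over 1.5 times. Without replicate 2, *Thy1* went from 6481 to 1842 normalized counts, *Ly6a* from 9228 to 6108, *Dlk1* from 434 to 46.4 and *Dpp4* from 4.81 to 0.868. Without replicate 1, *En1* went from 190.4 to 114, and without replicate 3, *Cd34* went from 346 to 223 and *Prdm1* from 80.2 to 37.3. Over all genes, those more than 2-fold from both other libraries numbered 560, 1325 and 471 for replicates 1, 2 and 3. They were 2140, 2791 and 1996 without a minimum, 169, 646 and 133 at a mean of at least 100, 1547, 3014 and 1160 at a 1.5-fold limit and 166, 536 and 166 at a 3-fold limit, and with a pseudocount of 10 they were 324 for replicate 1 and 258 for replicate 3. The genes with a more than 2-fold range numbered 3480, and 8604 without a minimum, 1661 at a mean of at least 100, 6842 at 1.5-fold, 1548 at 3-fold, and 2103, 1194 and 2509 without replicates 1, 2 and 3. Depth limited *Dpp4*, with at most 18 reads, and with 3 libraries of 1 condition the levels cannot be tied to MG or PD0325901.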
